A study of Mus musculus with 23 samples.

Results

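Levels of 9 genes that make, bind, sense and degrade retinoic acid were followed across 7 mouse genotypes in juvenile testes. The genes were taken by their symbols in the platform annotation: Aldh1a1, Aldh1a2, Stra6, Crabp1, Rara, Rarg, Cyp26a1, Cyp26b1 and Cyp26c1. All 9 were on the array, each with 1 probe set, out of 19661 genes with a single symbol, and all 9 passed the filter on dim signal that left 14746 genes for testing. RNA from mice aged 14.5 days, in pools of 4 testes, was hybridized to 23 Affymetrix Mouse Gene 1.0 ST arrays. The inter-subspecific hybrids were PWDxB6 and B6xPWD, each with 3 arrays. The crosses within a subspecies were PWDxPWK with 2 arrays, B6xBALB/C with 6, and its reciprocal BALB/CxB6 with 3. The inbred parents were PWD (3 arrays), a wild-derived strain of Mus musculus musculus like PWK, and B6 (3 arrays), a laboratory strain of mostly Mus musculus domesticus ancestry like BALB/C. Cross names give the mother's strain first by convention, so PWDxB6 males carry a PWD X chromosome and B6xPWD males a B6 X chromosome on the same autosomal background. PWDxB6 males are a known model of hybrid sterility with arrest in meiosis. No group carries a transgene or a treatment. Each pool was taken as a replicate. Whether pools came from separate litters is not given in the sources used here, and p-values therefore describe variation among these pools, which may be technical.

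Retinoic acid is made from vitamin A in steps that end with retinaldehyde dehydrogenases, acts through nuclear receptors that pair with retinoid X receptors, and is cleared by CYP26 enzymes. In the testis it drives spermatogonia to differentiate and to enter meiosis. In the fetal testis Cyp26b1 keeps retinoic acid away from germ cells, and after birth the enzyme is known from somatic cells around the seminiferous tubules.

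The labels name the tissue as testes, but the treatment protocol speaks of isolated spermatogenic populations. All 4 general germ cell markers and all 8 spermatocyte markers were above the dim limit (log2 5.12), and so were 9 of 10 Sertoli cell markers and all 8 peritubular markers, so somatic RNA was present. In bulk RNA of this kind, fewer cells of a type and less RNA per cell cannot be told apart. Each array had a median log2 signal of 6.13 to 6.28. B6xBALB/C replicate 6 stood apart from its group, at -7.34 on the first principal component against 9.31 to 29.15 for the 5 other arrays of that genotype. Of those, replicate 4 was at 9.31, and replicates 1, 2, 3 and 5 were at 23.07 to 29.15. Differences from B6xBALB/C and interactions that are named below are given with and without replicate 6. All levels are log2 array signals, and differences are between log2 means. Calls rest on an adjusted p (Benjamini-Hochberg) below 0.05 in a limma model of all 23 arrays. Levels of different genes are not compared, since probes differ in brightness.

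Promoter windows are shown because a retinoic acid response element is the textbook link between this pathway and its own clearance enzyme Cyp26a1. A direct repeat of a 6-base core, spaced by 5 bases, was searched for. The core could read AGGTCA or, with a change in the third base, AGTTCA, and both were allowed with another first base, which gives the forms GGGTCA and, for the second one, GGTTCA. The search covered both strands of RefSeq promoter windows (GRCm38.p6, 250 bases before to 50 bases after each start). The repeat was present in 32 of 32851 windows, or 0.0974%, and in 1 of the 17 windows of the 9 genes. That window belongs to Cyp26a1 and is set on an annotated start at 37697808, which lies 70 bases inside the gene's span. The repeat is 32 to 16 bases before that start, and the plus strand carries it in reverse, so it is inside the annotated gene and upstream of this start only. The first sequence below is chr19:37697558-37697807 on the plus strand, with the repeat in capitals, which reads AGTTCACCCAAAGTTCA on the minus strand.
Cyp26a1: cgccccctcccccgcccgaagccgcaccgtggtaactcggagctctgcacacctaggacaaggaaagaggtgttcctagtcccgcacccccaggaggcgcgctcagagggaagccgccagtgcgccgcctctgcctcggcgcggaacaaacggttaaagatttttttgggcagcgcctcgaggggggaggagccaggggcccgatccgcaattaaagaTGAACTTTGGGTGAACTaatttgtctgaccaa
The best known element of this kind belongs to Rarb, a receptor gene that was dim on these arrays. The stretch printed below is chr14:16575507-16575535 on the minus strand. The element, in capitals, lies 53 to 37 bases before a start that is internal to the annotated gene (16430839 to 17082331).
Rarb: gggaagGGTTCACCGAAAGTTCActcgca
The window of Cyp26b1, chr6:84593811-84594060 on the minus strand, is shown as the counterpart of the Cyp26a1 window. Its start, at 84593810, lies 98 bases inside the gene's span. The 250 bases printed, and the whole window of 300, hold 0 such cores in either orientation, where 43.7% of all windows and 6 of the 17 windows of the 9 genes held at least 1.
Cyp26b1: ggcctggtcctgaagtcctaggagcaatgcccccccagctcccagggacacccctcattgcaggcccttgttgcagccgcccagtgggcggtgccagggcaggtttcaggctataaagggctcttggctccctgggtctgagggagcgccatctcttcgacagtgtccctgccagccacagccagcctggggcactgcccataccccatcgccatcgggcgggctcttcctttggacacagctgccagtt
A match is a description of letters, and these windows are of the reference strain, not of PWD.

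Cyp26b1, on chromosome 6 (84571414 to 84593908, GRCm38.p6), was high in PWDxB6 and low in B6xPWD. The log2 signal was 9.08, 8.73 and 9.33 in PWDxB6, 8.27, 8.08 and 8.15 in B6xPWD, and 8.51 and 8.98 in PWDxPWK. It was 9.06, 9.06 and 8.96 in PWD and 8.95, 9.11 and 8.68 in B6, the parents of both hybrids. All 3 B6xPWD arrays lay below every array of PWDxB6, PWD and B6, and the arrays of PWDxB6 overlapped those of both parents. In B6xBALB/C the lowest, median and highest arrays were at 8.51, 8.76 and 9.11, and the BALB/CxB6 arrays were at 8.72, 8.58 and 7.85. The last value, of BALB/CxB6 replicate 3, was the lowest of all 23 arrays, and the other two arrays of that cross overlapped B6xBALB/C.

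**Figure D1:**
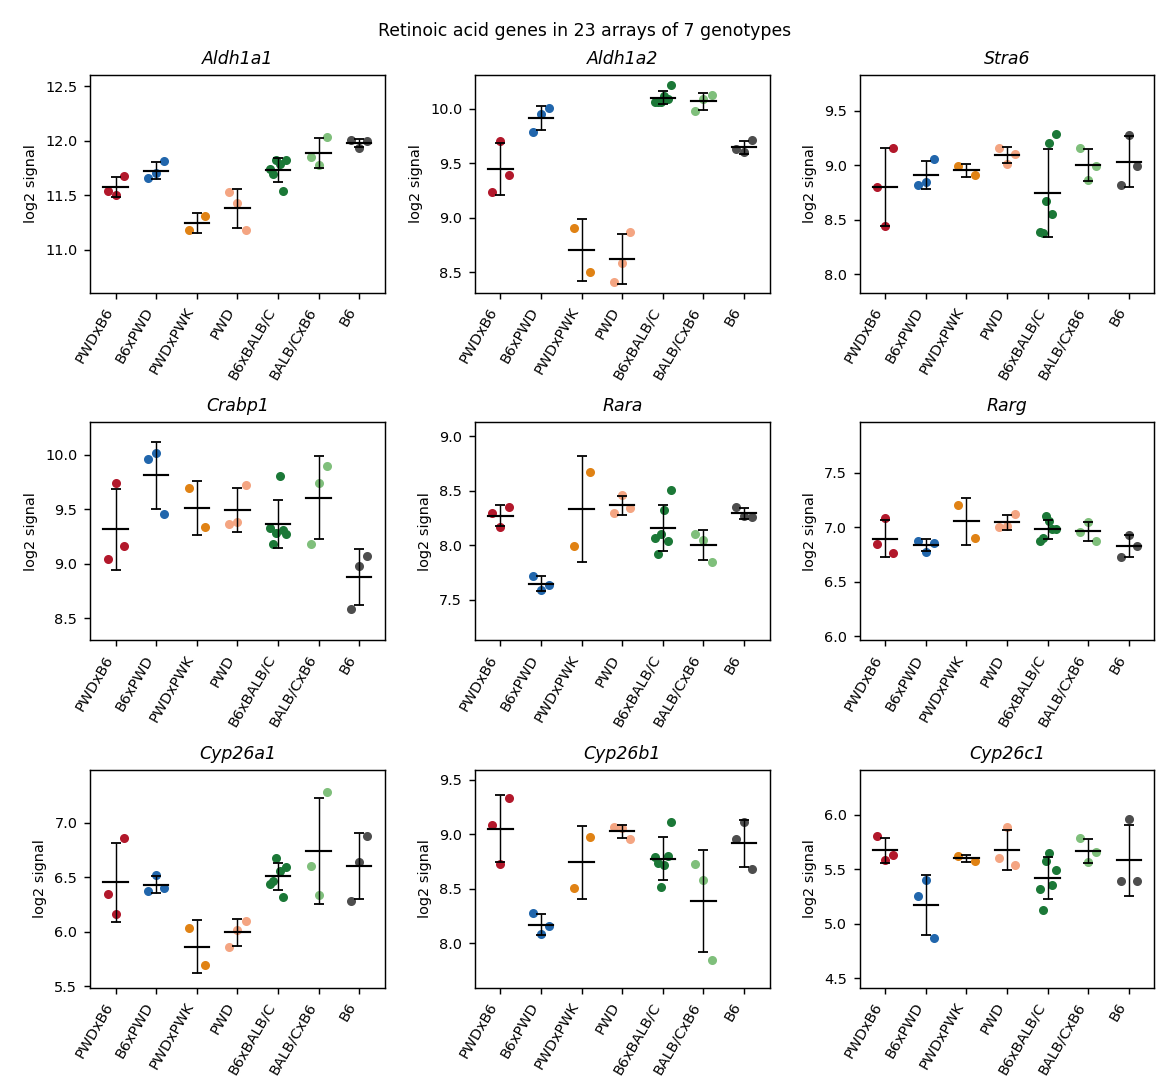
Log2 signal of the 9 retinoic acid genes on 23 arrays, by genotype; each point is an array, lines give the mean and bars the SD, and every panel spans the same number of log2 units. Cyp26b1 averaged 9.05 in PWDxB6 and 8.17 in B6xPWD, while Aldh1a2 averaged 8.62 in PWD and 9.65 in B6.

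The mean Cyp26b1 level ran from the highest to the lowest in the order PWDxB6, PWD, B6, B6xBALB/C, PWDxPWK, BALB/CxB6 and B6xPWD. The highest mean was 9.05 ± 0.30 (SD, n = 3) and the lowest 8.17 ± 0.10 (SD, n = 3), with 8.38 ± 0.47 (SD, n = 3) in BALB/CxB6 next to it. For each of the 6 pairs of neighbours in this order the arrays overlapped, and 0 of the 6 passed the limma test (adjusted p from 0.365 to 0.978), so only genotypes far apart in the order were separated. Over the 7 genotypes the limma F test called Cyp26b1 (adjusted p = 0.00505). It called 6 of the 9 genes, where 33.8% of all tested genes were called.

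The reciprocal comparison asks whether the direction of the cross matters when both hybrids share their autosomes. Cyp26b1 was 1.84-fold higher in PWDxB6 than in B6xPWD, a log2 difference of 0.88 (SE 0.189, 95% interval 0.49 to 1.27, limma adjusted p = 0.0172). Of the 9 genes, 2 were called higher and 1 lower in PWDxB6, where 2.83% of all tested genes were called, 1.33% higher and 1.51% lower. The median difference was 0.02 over the 9 genes, against 0.03 over all tested genes. The called genes were Cyp26b1, Rara and Aldh1a2. Leaving out a single array ended the Cyp26b1 call in 3 cases. The difference was 0.86 (adjusted p = 0.0722) without PWDxB6 replicate 1, 0.74 (adjusted p = 0.103) without PWDxB6 replicate 3, and 0.83 (adjusted p = 0.0865) without B6xPWD replicate 2.

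Cyp26b1 in B6xPWD lay below the mean of PWD and B6 by a log2 difference of -0.80 (SE 0.163, limma adjusted p = 0.00444), 1.74-fold lower. The interval was -1.14 to -0.46, and the call held under every alternative tried for it, among them each array left out in turn. In PWDxB6 the difference from the mid-parent was 0.08 (SE 0.163, limma adjusted p = 0.894), with an interval of -0.26 to 0.42. PWD and B6 differed by 0.11 (limma adjusted p = 0.729, interval -0.28 to 0.50). The 2 mid-parent comparisons share their parental arrays, and each shares hybrid arrays with the reciprocal comparison, so these values are not independent of one another.

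The within-subspecies crosses gave further references. B6xPWD lay below B6xBALB/C, a cross with the same maternal strain, by -0.61 for Cyp26b1 (SE 0.163, limma adjusted p = 0.0220). In that comparison 2 of the 9 genes, Cyp26b1 and Rara, were called lower and 0 higher, where 9.3% of all tested genes were called, 5.77% higher and 3.53% lower. Without B6xBALB/C replicate 6 the difference of Cyp26b1 was -0.54 (adjusted p = 0.0292). Without B6xPWD replicate 2 or 3 the call was lost (adjusted p = 0.103 and 0.0677), and it was lost as well on replicates 1 to 3 of each genotype alone (-0.51, adjusted p = 0.0879).

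The reciprocal crosses of B6 and BALB/C were compared in the same way. The Cyp26b1 difference of B6xBALB/C from BALB/CxB6 was 0.39 (SE 0.163, limma adjusted p = 0.260, interval 0.05 to 0.73), and 0 of the 9 genes were called, where 0.441% of all tested genes were, 0.359% higher and 0.0814% lower. Without BALB/CxB6 replicate 3 this difference was 0.12 (adjusted p = 0.882), and without B6xBALB/C replicate 6 it was 0.32 (adjusted p = 0.277). The background rested on that last array as well. Without it, 1011 of all tested genes were called in this comparison, 770 higher and 241 lower, against 65 in the main fit. The reciprocal difference of the hybrids minus that of the B6 and BALB/C cross was 0.49 for Cyp26b1 (SE 0.249, limma adjusted p = 0.326, interval -0.03 to 1.00), and 0.55 (adjusted p = 0.171) without B6xBALB/C replicate 6. In that test 0 of the 9 genes were called by limma, where 1.3% of all tested genes were, 0.224% higher and 1.08% lower. Without BALB/CxB6 replicate 3 the interaction for Cyp26b1 was 0.76 (SE 0.219, limma adjusted p = 0.0901), larger but still not called. With array weights the interaction was called for Cyp26b1 (0.85, limma adjusted p = 0.00210). That setting called 4222 genes in this comparison, against 192 of 14746 in the main fit, so the call is not particular to Cyp26b1.

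PWDxPWK, the cross within musculus, differed from PWD by -0.28 for Cyp26b1 (limma adjusted p = 1.00), and 0 of the 9 genes were called, where 0.00678% of all tested genes were. PWDxB6 differed from PWDxPWK by 0.31 for Cyp26b1 (limma adjusted p = 0.670). In all, 5 of the 21 pairs of genotypes were called for Cyp26b1, 4 of them with B6xPWD as the lower one. Beside the pairs above, B6xPWD lay below PWD (-0.86, adjusted p = 0.00481) and below B6 (-0.74, adjusted p = 0.0103), in limma comparisons where 16% and 17% of all tested genes were called. The last was PWD above BALB/CxB6 (0.64, limma adjusted p = 0.0259, 13.4% of tested genes called), which without BALB/CxB6 replicate 3 was 0.37 (adjusted p = 0.211). Without B6 replicate 2 the difference of B6xPWD from B6 was -0.65 (adjusted p = 0.0531).

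**Figure D2:**
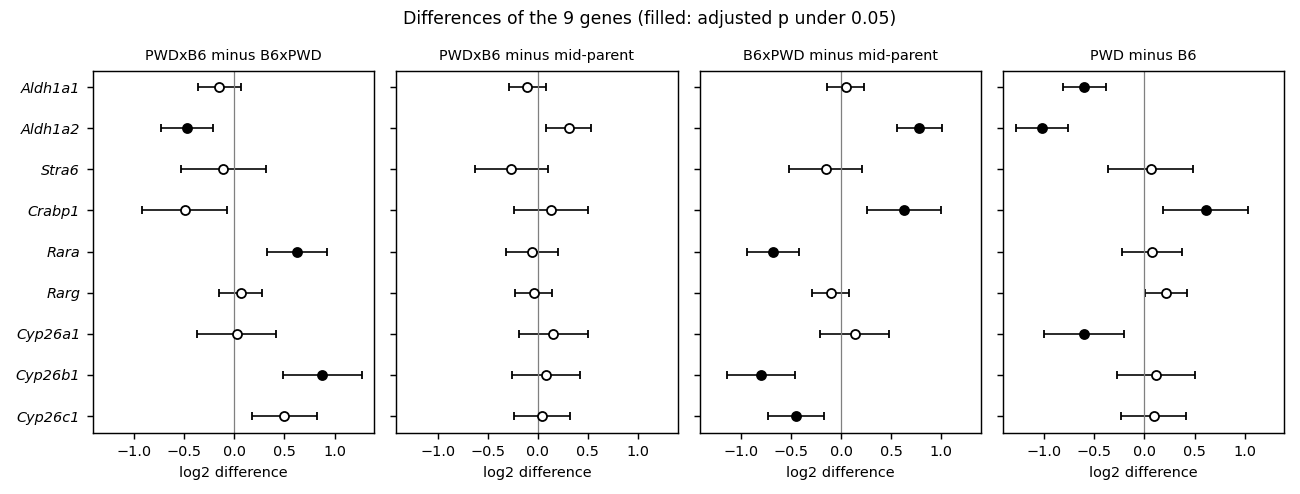
Log2 differences of the 9 genes with 95% intervals in 4 comparisons; filled points have a limma adjusted p under 0.05. Cyp26b1 and Rara were higher and Aldh1a2 lower in PWDxB6 than in B6xPWD. Against the mean of the parents 5 of the 9 genes were called in B6xPWD, where 14.5% of all tested genes were. In PWDxB6 0 of the 9 were called, where only 0.671% of all tested genes were.

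Among all genes, the 5 whose log2 values followed Cyp26b1 most closely over the 23 arrays were Ltbp4, which binds latent TGF-beta (r = 0.95), Smtn, a protein of the smooth muscle cytoskeleton (0.93), Slit3, a secreted guidance factor (0.92), Hspg2, the basement membrane proteoglycan perlecan (0.91) and Hdac7, a histone deacetylase (0.91). Over the 7 genotype means the same genes had r from 0.90 to 0.96. These are descriptions across arrays that share genotypes and cell content, and across all 14745 other genes the median r was 0.06, with 5% of genes above 0.60. Ltbp4 averaged 8.66 ± 0.28 in PWDxB6 and 8.04 ± 0.07 in B6xPWD (SD, n = 3 each). Of these 5 genes, only Smtn passed the test in the reciprocal comparison (0.51, limma adjusted p = 0.0215), and all 5 were called lower in B6xPWD than in the mid-parent, by -0.37 to -0.70. Since they were chosen for likeness to Cyp26b1, these counts describe the choice.

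Of the receptors, Rara (chromosome 11, 98927800 to 98974942) encodes retinoic acid receptor alpha, which in the testis is best known from Sertoli cells. It had the pattern closest to Cyp26b1 among the 9 genes, with r = 0.83 over 23 arrays, rank 14 of all genes, and 0.65 after genotype means were taken out. The log2 signal was 8.30, 8.17 and 8.35 in PWDxB6, 7.72, 7.59 and 7.64 in B6xPWD, and 7.99 and 8.67 in PWDxPWK. It was 8.30, 8.46 and 8.34 in PWD and 8.35, 8.27 and 8.26 in B6. The 3 B6xPWD arrays were the lowest of all 23, so B6xPWD did not overlap any other genotype, while PWDxB6 overlapped both parents. B6xBALB/C ran from 7.92 through a median of 8.08 to 8.51, and BALB/CxB6 stood at 8.10, 8.05 and 7.85.

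Rara was 1.54-fold higher in PWDxB6 than in B6xPWD (log2 difference 0.62, SE 0.145, limma adjusted p = 0.0227). That call was lost without any 1 of the same 3 arrays, with differences of 0.59 to 0.61 and adjusted p from 0.0958 to 0.110. The difference hardly moved, while calls over all tested genes fell from 418 to 81, 54 and 59. These counts are without PWDxB6 replicate 1, PWDxB6 replicate 3 and B6xPWD replicate 2. B6xPWD lay below the mid-parent by -0.68 (SE 0.125, limma adjusted p = 0.00254), where 14.5% of all tested genes were called. B6xPWD also lay below PWD (-0.72), B6 (-0.65), PWDxPWK (-0.68) and B6xBALB/C (-0.51), with limma adjusted p from 0.00284 to 0.0183, and 4.2% of tested genes were called against PWDxPWK. Against BALB/CxB6 the difference was -0.35 and not called (limma adjusted p = 0.236), though the arrays did not overlap. Without PWDxPWK replicate 2 the difference from PWDxPWK was -0.34 (adjusted p = 0.321), without B6xPWD replicate 2 it was -0.65 (adjusted p = 0.0680), and without B6xPWD replicate 2 the difference from B6xBALB/C was -0.48 (adjusted p = 0.0697). That difference was -0.44 (adjusted p = 0.0159) without B6xBALB/C replicate 6, and on replicates 1 to 3 of each genotype alone it was -0.38 and no longer called (adjusted p = 0.0646, and 0.0751 with the replicate number as a block). The interaction for Rara was 0.47 (limma adjusted p = 0.215), and the difference of B6xBALB/C from BALB/CxB6 was 0.16 (adjusted p = 0.627). Without B6xBALB/C replicate 6 these were 0.54 (adjusted p = 0.0671) and 0.088 (adjusted p = 0.770).

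Rarg (chromosome 15, 102234938 to 102257522), the receptor known from spermatogonia, was nearly level. Its 23 arrays lay between 6.73 and 7.21, and its means between 7.05 ± 0.21 (SD, n = 2) in PWDxPWK and 6.83 ± 0.10 (SD, n = 3) in B6. It differed by 0.06 between PWDxB6 and B6xPWD (limma adjusted p = 0.755, interval -0.15 to 0.27). No pair of genotypes was called (0 of 21), and the F test gave an adjusted p of 0.294. PWD and B6 arrays did not overlap, with a difference of 0.22 that missed the threshold (limma adjusted p = 0.152).

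**Figure D3:**
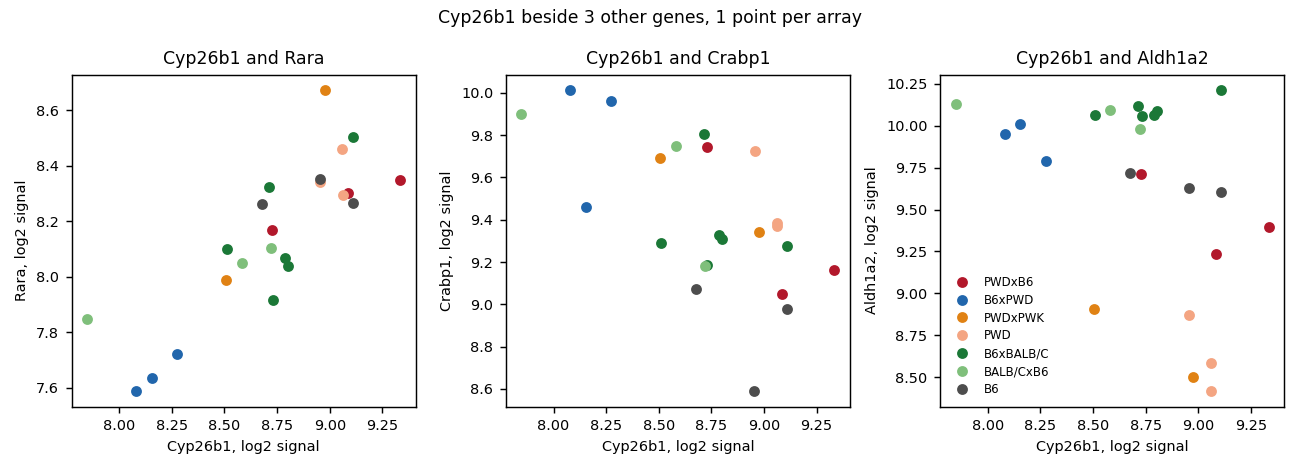
Log2 signal of Cyp26b1 (x axis) beside Rara, Crabp1 and Aldh1a2 (y axes), 1 point per array, coloured by genotype. The 3 B6xPWD arrays lie at the low end for both Cyp26b1 and Rara (r = 0.83 over 23 arrays), while r was -0.63 with Crabp1 and -0.46 with Aldh1a2.

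Of the synthesis genes, Aldh1a2 (chromosome 9, 71215789 to 71296243) encodes a retinaldehyde dehydrogenase that in the mouse testis is known from germ cells. It was lowest in the musculus genotypes. It was at 9.23, 9.71 and 9.40 in PWDxB6, 9.79, 9.95 and 10.01 in B6xPWD, and 8.91 and 8.50 in PWDxPWK. It was at 8.42, 8.58 and 8.87 in PWD and 9.63, 9.60 and 9.72 in B6. The musculus genotypes PWD and PWDxPWK lay below every array of the other 5 genotypes. In B6xBALB/C the lowest, median and highest arrays stood at 10.06, 10.08 and 10.22, and BALB/CxB6 at 9.98, 10.09 and 10.13.

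Aldh1a2 was 2.04-fold lower in PWD than in B6, a log2 difference of -1.03 (SE 0.125, limma adjusted p = 3.55e-06), in a comparison that called 18.4% of all tested genes. In B6xPWD it lay above the mid-parent by 0.78 (SE 0.108, limma adjusted p = 0.000292). The B6xPWD arrays lay above those of both parents, but the difference from B6 alone was 0.27 and not called (limma adjusted p = 0.145). In PWDxB6 the difference from the mid-parent was 0.31 (SE 0.108, limma adjusted p = 0.224), where 0 of the 9 genes and 0.671% of all tested genes were called. Between the hybrids Aldh1a2 was 1.39-fold lower in PWDxB6 (-0.47, SE 0.125, limma adjusted p = 0.0439). That call stood near the threshold: it was lost without any 1 of 10 arrays (PWDxB6 replicates 1 and 3, B6xPWD replicates 2 and 3, PWD replicate 2 and B6xBALB/C replicates 1 to 5), with differences of -0.36 to -0.47 and adjusted p from 0.0503 to 0.207. It was also lost with no filter on dim genes (adjusted p = 0.0583), with quantile normalization (-0.42, 0.0665) and with only the genotypes compared in the fit (0.116).

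Aldh1a2 had the widest span of genotype means of the 9 genes, 1.48 log2 units, and 14 of 21 pairs were called. PWDxB6 lay above PWD by 0.82 (adjusted p = 0.000317, 2.31% of tested genes called) and B6xPWD above PWD by 1.29 (adjusted p = 8.54e-07). PWDxB6 lay above PWDxPWK by 0.74 (SE 0.140, adjusted p = 0.00371), the only call among the 9 genes there, where 1.43% of all tested genes were called, 0.956% higher. Without PWDxPWK replicate 2 this difference was 0.54 (adjusted p = 0.178). PWDxB6 also lay below B6xBALB/C (-0.65, 9.72% of tested genes called) and below BALB/CxB6 (-0.62, 3.18% called), and B6xBALB/C lay above B6 by 0.45 (adjusted p = 0.0225, 3.99% called). The last call was lost without B6 replicate 1 or 2 (adjusted p = 0.0849 and 0.0828). Without B6xBALB/C replicate 6, PWDxB6 lay below B6xBALB/C by -0.63 (adjusted p = 0.000321) and B6xBALB/C above B6 by 0.43 (adjusted p = 0.0123). Between B6xBALB/C and BALB/CxB6 the difference was 0.03 (adjusted p = 0.938), and the interaction was -0.50 (SE 0.165, adjusted p = 0.117), against 0.01 and -0.48 (adjusted p = 0.977 and 0.0873) without that array. All p-values in this paragraph are from the limma model.

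Aldh1a1 (chromosome 19, 20492583 to 20643463), the retinaldehyde dehydrogenase known from Sertoli cells in the mouse, was lower in the musculus strain as well. It was at 11.54, 11.50 and 11.68 in PWDxB6, 11.66, 11.71 and 11.81 in B6xPWD, and 11.18 and 11.31 in PWDxPWK. It was at 11.53, 11.43 and 11.18 in PWD and 12.01, 11.93 and 12.00 in B6. All B6 arrays lay above those of both hybrids, and the PWD arrays overlapped PWDxB6 but not B6xPWD. B6xBALB/C ran from 11.54 through a median of 11.77 to 11.82, and BALB/CxB6 was at 11.85, 11.77 and 12.04.

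Aldh1a1 was 1.52-fold lower in PWD than in B6 (log2 difference -0.60, SE 0.103, limma adjusted p = 0.000266). The difference from the mid-parent was -0.11 in PWDxB6 (limma adjusted p = 0.689) and 0.05 in B6xPWD (0.742), and between PWDxB6 and B6xPWD the difference was -0.15 (limma adjusted p = 0.405, interval -0.37 to 0.06). In all 9 of 21 pairs were called, of which 8 set PWD or PWDxPWK below another genotype, with backgrounds of 12.4% for PWDxPWK against B6xBALB/C, 7.81% against BALB/CxB6 and 15.3% against B6, and of 21.8% for PWD against B6xBALB/C. PWDxB6 lay below B6 by -0.40 (limma adjusted p = 0.0183, 8.13% of tested genes called). That call was lost without PWDxB6 replicate 1 or 2 or B6 replicate 1 or 3 (-0.37 to -0.40, adjusted p from 0.0535 to 0.0859). Leaving out single arrays also ended the calls of B6xPWD against PWDxPWK (either PWDxPWK array and B6xPWD replicates 2 and 3, adjusted p from 0.0550 to 0.149 without 1 of them) and against PWD (PWD and B6xPWD replicates 2 and 3, 0.0537 to 0.145). The call of PWDxPWK against B6xBALB/C was lost without PWDxPWK replicate 1 (0.0758), and that of PWD against B6xBALB/C without PWD replicate 3 (0.0814). These differences, -0.49 and -0.35, were -0.47 and -0.34 without B6xBALB/C replicate 6 and stayed called.

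Crabp1 (chromosome 9, 54764748 to 54773110) encodes a cytosolic protein that binds retinoic acid. Its level was highest in B6xPWD, where Cyp26b1 was lowest. It was at 9.05, 9.74 and 9.16 in PWDxB6, 9.96, 10.01 and 9.46 in B6xPWD, and 9.69 and 9.34 in PWDxPWK. It was at 9.37, 9.39 and 9.73 in PWD and 8.59, 8.98 and 9.07 in B6. B6 did not overlap PWD or B6xPWD, but PWDxB6 overlapped B6xPWD and both parents. B6xBALB/C ran from 9.19 through a median of 9.30 to 9.81, and BALB/CxB6 stood at 9.18, 9.75 and 9.90.

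Crabp1 was 1.54-fold higher in B6xPWD than in the mid-parent (log2 difference 0.63, SE 0.178, limma adjusted p = 0.0240) and 0.93 higher than in B6 (adjusted p = 0.00446). The difference of B6xPWD from PWD was 0.32 and not called (limma adjusted p = 0.280), and the arrays of these genotypes overlapped. PWD lay above B6 by 0.61 (SE 0.205, limma adjusted p = 0.0395). The mid-parent call was lost without B6 replicate 1 or B6xPWD replicate 1 or 2 (0.52 to 0.55, adjusted p from 0.0539 to 0.138). The parental call was lost without any 1 of 5 arrays (PWD replicates 1 to 3 and B6 replicates 1 and 2), with differences of 0.47 to 0.68 and adjusted p from 0.0568 to 0.178. In the reciprocal comparison the difference was -0.49 (SE 0.205, limma adjusted p = 0.174). Only 2 of the 21 pairs were called for Crabp1.

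Stra6 (chromosome 9, 58063793 to 58154004), the membrane receptor through which cells take up retinol from its plasma carrier, was not called in any comparison. Its means ran from 9.09 ± 0.08 (SD, n = 3) in PWD to 8.75 ± 0.40 (SD, n = 6) in B6xBALB/C. The B6xBALB/C arrays had the widest spread, with 8.39, 8.38 and 8.67 in replicates 1 to 3 and 9.20, 8.55 and 9.29 in replicates 4 to 6. PWDxB6 and B6xPWD differed by -0.11 (SE 0.205, limma adjusted p = 0.786, interval -0.53 to 0.32), and the F test gave an adjusted p of 0.539.

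Of the other CYP26 enzymes, Cyp26a1 (chromosome 19, 37697738 to 37701536), known as a strongly retinoic acid-induced gene in many tissues, followed the strains. It was at 6.35, 6.16 and 6.86 in PWDxB6, 6.37, 6.52 and 6.40 in B6xPWD, and 6.04 and 5.69 in PWDxPWK. It was at 5.86, 6.02 and 6.10 in PWD and 6.28, 6.64 and 6.88 in B6. The PWD and PWDxPWK arrays were the lowest of the 23, and the hybrids overlapped B6. B6xBALB/C ran from 6.32 through a median of 6.51 to 6.68, and BALB/CxB6 was at 6.61, 6.34 and 7.28.

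Cyp26a1 was 1.52-fold lower in PWD than in B6 (log2 difference -0.61, SE 0.193, limma adjusted p = 0.0303), a call lost without PWD replicate 1 or 2 or B6 replicate 2 or 3 (-0.47 to -0.62, adjusted p from 0.0704 to 0.153). With Aldh1a1, Aldh1a2 and Crabp1 it made 4 of 9 genes called between the parents, 1 higher and 3 lower in PWD, where 10.4% of all tested genes were higher and 8.04% lower. Between PWDxB6 and B6xPWD it differed by 0.02 (limma adjusted p = 0.965, interval -0.38 to 0.42). Its 6 called pairs of 21 set PWD or PWDxPWK below B6, B6xBALB/C or BALB/CxB6, by -0.51 to -0.88. Each of them was lost without 1 of 2 to 4 arrays. PWDxPWK replicate 2 ended all 3 calls of PWDxPWK, with adjusted p from 0.171 to 0.303, and BALB/CxB6 replicate 3 ended both calls against BALB/CxB6 (0.0735 and 0.107). Without B6xBALB/C replicate 6, PWDxPWK and PWD lay below B6xBALB/C by -0.63 and -0.50 (adjusted p = 0.0296 and 0.0340). Over 23 arrays Cyp26a1 had r = 0.76 with Aldh1a1 and 0.70 with Aldh1a2, and -0.35 with Cyp26b1. Within genotypes these were 0.41, 0.20 and -0.38.

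Cyp26c1 (chromosome 19, 37685112 to 37693320), the third enzyme of the family, was at 5.80, 5.58 and 5.64 in PWDxB6, 5.25, 5.40 and 4.87 in B6xPWD, and 5.63 and 5.58 in PWDxPWK. It was at 5.61, 5.89 and 5.54 in PWD and 5.39, 5.96 and 5.40 in B6. PWDxB6 lay above B6xPWD without overlap, and B6xPWD replicate 2 overlapped B6. The lowest, median and highest B6xBALB/C arrays stood at 5.13, 5.43 and 5.65, and BALB/CxB6 at 5.78, 5.56 and 5.66. These signals are near the dim limit of log2 5.12.

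Cyp26c1 was 1.37-fold lower in B6xPWD than in the mid-parent (log2 difference -0.45, SE 0.135, limma adjusted p = 0.0295). The call was lost without PWD replicate 2, B6 replicate 2 or B6xPWD replicate 1 or 3 (-0.30 to -0.49, adjusted p from 0.0518 to 0.181). In the reciprocal comparison its difference of 0.50 missed the threshold (SE 0.156, limma adjusted p = 0.0777). B6xPWD lay below PWD by -0.50 (adjusted p = 0.0332), the only called pair of 21, and this was lost without PWD replicate 1 or 2 or B6xPWD replicate 3 (adjusted p from 0.0660 to 0.155). The interaction was 0.75 (SE 0.206, limma adjusted p = 0.0660), and without B6xBALB/C replicate 6 it was called (0.76, SE 0.210, adjusted p = 0.0251). That setting called 1057 genes in the interaction, against 192 in the main fit, so the call is not particular to Cyp26c1. In B6xPWD against the mid-parent, 5 of 9 genes were thus called, Aldh1a2 and Crabp1 higher and Cyp26b1, Cyp26c1 and Rara lower, where 7.79% of all tested genes were higher and 6.69% lower. The median difference was -0.10 over the 9 genes and -0.03 over all tested genes.

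Other genes of the pathway were taken from a list of 45 genes for retinol and retinaldehyde conversion, transport, receptors with their cofactors, and germline targets. Of these 40 were on the array and 29 were tested. In the reciprocal comparison 2 of 29 were called higher in PWDxB6 and 1 lower, where 1.33% of all tested genes were higher and 1.51% lower, with a median difference of 0.06 against 0.03 over all tested genes. Tgm2, a transglutaminase induced by retinoic acid, had means of 8.73 ± 0.31 in PWDxB6 and 8.09 ± 0.12 in B6xPWD (SD, n = 3 each), a difference of 0.64 (limma adjusted p = 0.0129). Rxra, a retinoid X receptor and partner of Rara, had 7.17 ± 0.02 in PWDxB6 and 6.76 ± 0.01 in B6xPWD (SD, n = 3 each), a difference of 0.41 (limma adjusted p = 0.0195). Rdh14, a retinol dehydrogenase, was at 6.23 ± 0.19 in PWDxB6 and 6.87 ± 0.18 in B6xPWD (SD, n = 3 each), lower by -0.64 (limma adjusted p = 0.0295). Without PWDxB6 replicate 3 the adjusted p was 0.0949 for Tgm2, 0.0887 for Rxra and 0.0871 for Rdh14, and without B6xPWD replicate 2 it was 0.0603, 0.0938 and 0.137. Calls were also lost for Rxra without PWDxB6 replicate 1 (0.0776) and for Rdh14 without PWDxB6 replicate 1 (0.151) or B6xPWD replicate 1 (0.0633).

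Against the mid-parent, B6xPWD had 3 of 29 pathway genes higher and 5 lower, where 7.79% of all tested genes were higher and 6.69% lower, with a median of -0.12 against -0.03 over all tested genes. The 4 with the smallest p were Tgm2 (-0.54, limma adjusted p = 0.00595), Rdh14 (0.58, 0.00877), Stra8, the retinoic acid-induced gene of meiotic entry (0.53, 0.0176), and Ep300, a histone acetyltransferase and coactivator (-0.41, 0.0213). Without B6xPWD replicate 2 the calls on Rdh14, Stra8 and Ep300 were lost (adjusted p = 0.0677, 0.0742 and 0.0884), as were those on Stra8 without B6xPWD replicate 3 (0.0679) and on Ep300 without B6xPWD replicate 1 (0.0764). In PWDxB6, where 0.671% of all tested genes were called, the only call of 29 was Stra8 (0.60, limma adjusted p = 0.0453), which was lost without any 1 of 14 arrays (adjusted p from 0.0512 to 0.369). Stra8 averaged 9.03 ± 0.12 in PWDxB6 and 8.96 ± 0.12 in B6xPWD, and 8.87 ± 0.13 in the PWD and 8.01 ± 0.34 in the B6 parent (SD, n = 3 each). B6 was thus the genotype that stood apart, and PWD and B6 differed by 0.86 (limma adjusted p = 0.000627).

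Between PWD and B6, 2 of 29 were called higher and 4 lower, where 10.4% of all tested genes were higher and 8.04% lower. Beside Stra8 the smallest p-values belonged to Rdh5, a retinol dehydrogenase best known from the eye (-0.64, limma adjusted p = 0.00106), Rbp4, the plasma carrier of retinol (-0.50, 0.00431) and Rdh11, a retinaldehyde reductase (-1.13, 0.0127, and 0.0620 without B6 replicate 3). Of the 29, 1 was called between PWDxB6 and PWDxPWK, where 1.43% of all tested genes were. It was Rbp4 (0.55, limma adjusted p = 0.0266), a call lost without either PWDxPWK array or without PWDxB6 replicate 2 or 3 (adjusted p from 0.0768 to 0.175). Between B6xPWD and B6xBALB/C 3 of 29 were called, a share near the 9.3% of all tested genes. They were Rec8, a meiotic cohesin subunit (0.73, limma adjusted p = 0.000837), Rdh14 (0.65, 0.00393) and Rxra (-0.30, 0.0202). Without B6xBALB/C replicate 6 these were 0.78, 0.66 and -0.28 (adjusted p = 0.000221, 0.00339 and 0.0308). The Rxra call was lost without any 1 of the 3 B6xPWD arrays (adjusted p from 0.0501 to 0.0837). Of the 29, 0 were called between B6xBALB/C and BALB/CxB6 or between PWDxPWK and PWD.

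Scores of some cell type marker lists rose with Cyp26b1 across the arrays, and others fell or hardly followed it. For each list, the score of an array is the mean over its tested markers of the log2 signal minus that gene's mean over 23 arrays. The germ cell score (4 of 4 markers) was -0.36 to -0.07 in PWDxB6 and 0.11 to 0.37 in B6xPWD, and the spermatocyte score (8 of 8) was -0.55 to -0.18 in PWDxB6 and 0.11 to 0.46 in B6xPWD. The peritubular score (8 of 8) was 0.13 to 0.40 in PWDxB6 and -0.24 to -0.08 in B6xPWD. These 3 scores did not overlap between the hybrids, while those of Sertoli cells (9 of 10 markers), Leydig cells (3 of 6) and endothelial cells (6 of 6) did. The germ cell and spermatocyte scores were -0.43 to -0.26 and -0.45 to -0.21 in PWD. In B6 they were -0.22 to 0.06 and -0.19 to 0.20. PWDxB6 thus overlapped both parents in these scores. Over the 23 arrays Cyp26b1 had r = -0.67 with the germ cell score, 0.62 with the peritubular, 0.62 with the Leydig, 0.58 with the endothelial, -0.48 with the spermatogonial, -0.42 with the spermatocyte, 0.26 with the Sertoli and 0.17 with the macrophage score. Among single genes, 5% had r below -0.63 and 5% above 0.60.

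By the gene-wise test, 2 of 8 peritubular markers were called higher in PWDxB6 than in B6xPWD, Cnn1 (0.56, limma adjusted p = 0.0479) and Des (0.55, 0.0327), and 1 of 4 germ cell markers lower, Tex101 (-0.75, 0.0439), where 1.33% of all tested genes were higher and 1.51% lower. Between the hybrids 0 of 8 spermatocyte markers were called. Against the mid-parent, B6xPWD had 4 of 6 endothelial, 3 of 9 Sertoli, 2 of 8 peritubular and 1 of 3 Leydig markers called lower and 0 higher, and 2 of 4 germ cell, 2 of 8 spermatocyte and 1 of 7 spermatogonial markers called higher and 0 lower. Of all tested genes 7.79% were higher and 6.69% lower there. In PWDxB6 against the mid-parent 0 of 4 germ cell, 0 of 8 spermatocyte and 0 of 8 peritubular markers were called, where 0.671% of all tested genes were. The median differences were -0.02, 0.13 and 0.13 in the same order. The part of these cell types in the levels of Cyp26b1, Rara, Crabp1 and Aldh1a2 was not tested.

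**Figure D4:**
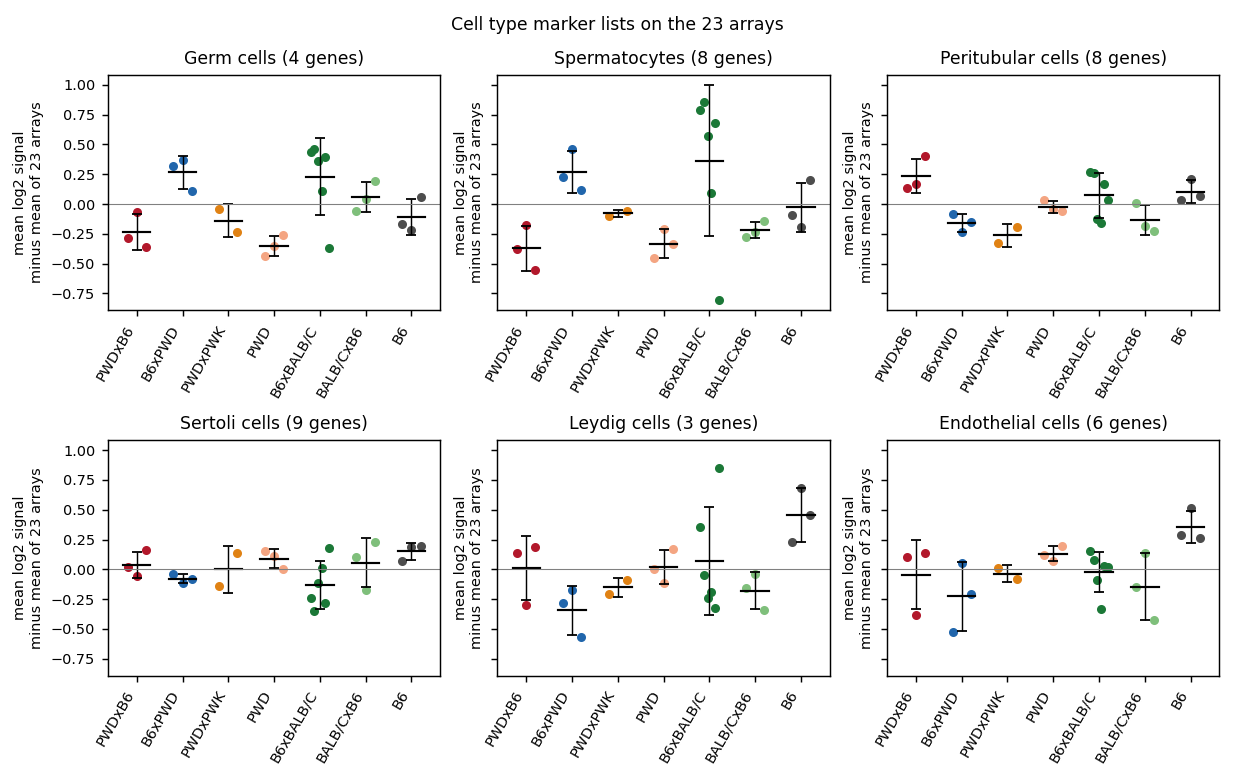
Scores of 6 cell type marker lists by genotype, each the mean log2 signal of its tested genes minus their mean over 23 arrays; points are arrays, lines give means and bars the SD. Germ cell and spermatocyte scores were lower and peritubular scores higher in PWDxB6 than in B6xPWD without overlap, and B6xBALB/C replicate 6 has the lowest spermatocyte score (-0.80). Germ cell and spermatocyte scores of PWDxB6 overlapped those of both parents.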

How the data were processed

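Biotin-labelled total RNA of pooled testes was measured on 1-colour Affymetrix arrays, per the labels. The deposited table holds a log2 value per probe set and array for 25690 probe sets and 23 arrays. The base was taken from the range of 1.17 to 13.96, and how the authors corrected background and normalized the arrays is not given in the sources used here. The authors left out 1 PWDxPWK array as an outlier, per the series design text. Symbols came from the platform annotation: 20777 probe sets had 1 gene symbol, 232 several and 4681 none listed. Positions came from RefSeq (GRCm38.p6). Where a gene had several probe sets, the one with the highest mean was used. Genes in the lowest 25% by mean signal were not tested.

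All 23 arrays entered a linear model of 7 genotypes in limma (3.58.1, R 4.3.3), which left 16 residual degrees of freedom. Variances were moderated by eBayes, and p-values were Benjamini-Hochberg adjusted over 14746 genes. It was tested on simulated data. Members, lists and tests were chosen with earlier results of these data known. Named genes were the 9 members, up to 4 called pathway genes with the smallest p per comparison, the 5 genes most correlated with Cyp26b1, and up to 2 called markers per list. Precision is limited by 2 to 6 arrays per genotype. Alternatives were other dim filters, quantile normalization, centring on the autosomal median, averaged probe sets, a trended and robust eBayes fit, weighted arrays, a replicate block, only the genotypes compared, a linear mid-parent and each array left out. Figures were drawn with matplotlib 3.10.9 (Python 3.11.15).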

Additional observations from a re-analysis of the deposited data

Results flagged for a closer look

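Crabp1 in B6xBALB/C replicate 4, at 9.81, lay far above the other 5 arrays of its genotype, which ran from 9.19 to 9.33. Of the 9 genes tested this way in the 6 B6xBALB/C arrays it was the only one with such a gap, and chance gives such a gap in about 1 of 20 groups.

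Rxra had a reciprocal difference that was not the same in the hybrids and in the within-subspecies cross. The difference of PWDxB6 from B6xPWD minus that of B6xBALB/C from BALB/CxB6 was 0.49 (SE 0.122, limma adjusted p = 0.0486), and PWDxB6 lay above B6xPWD while B6xBALB/C and BALB/CxB6 averaged 7.06 ± 0.09 (SD, n = 6) and 7.13 ± 0.08 (SD, n = 3). The call was lost in 23 of 33 alternatives, 19 of them with 1 array left out (0.44 to 0.52, adjusted p from 0.0526 to 0.152), and was kept without B6xBALB/C replicate 6 (0.51, adjusted p = 0.0122). The cause was not tested.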

How the results depend on the processing

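Of 82 gene results followed here, 64 were called, 28 of these kept their direction and call under every alternative tried for them, and 0 of the called ones turned sign. Most of the 82 were picked because they were called in the main fit, so 64 of 82 is not a share of all tests. Counts over all genes moved more, with causes not tested. With array weights the counts were 4635 (main 418) for PWDxB6 against B6xPWD, 212 (main 99) for PWDxB6 and 5968 (main 2135) for B6xPWD against the mid-parent, 1618 (main 65) for B6xBALB/C against BALB/CxB6, 2 (main 1) for PWDxPWK against PWD, 4953 (main 1371) for B6xPWD against B6xBALB/C, 4222 (main 192) for the interaction and 9601 (main 4985) for the F test, and 1 (main 0) pair of neighbours in the Cyp26b1 order was called. The Cyp26b1 interaction was then 0.85.

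After genotype means were taken out, samples with the same number had r from -0.32 to 0.44 (mean 0.03, 57 pairs). Samples with different numbers had r from -0.43 to 0.45 (mean -0.02, 114 pairs). With ranges this alike the numbers were not taken to pair samples, though the check cannot exclude shared litters or batches. With the replicate block, which used replicates 1 to 3 only, the counts were 1044 for PWDxB6 against B6xPWD, 239 for PWDxB6 against the mid-parent, 1311 for B6xBALB/C against BALB/CxB6, 4 for PWDxPWK against PWD and 1599 for the interaction. Without the block on the same arrays, a setting chosen after seeing the data, they were 931, 227, 1275, 2 and 1444 in the same order. Cyp26b1 in B6xPWD against B6xBALB/C was -0.51 in both (adjusted p = 0.0798 with the block and 0.0879 without). Fitting only the genotypes compared gave 207, 174, 0, 3 and 23 for the same 5 comparisons, and 137 (main 211) for PWDxB6 against PWDxPWK. That fit also ended the calls on Tgm2, Rxra and Rdh14 between the hybrids (adjusted p = 0.0734, 0.0752 and 0.0508), Cyp26c1 in B6xPWD against the mid-parent (0.0570), Aldh1a2 and Rbp4 in PWDxB6 against PWDxPWK (0.1001 and 0.0806), Rara in B6xPWD against PWDxPWK (0.111), and Aldh1a1 in PWDxB6 against B6 (0.0581) and in B6xPWD against PWDxPWK (0.110) and PWD (0.0593). Quantile normalization ended those on Aldh1a1 in B6xPWD against PWDxPWK (0.0503) and PWD (0.0729) and on Cyp26c1 in B6xPWD against PWD (0.0600). No dim filter ended those on Crabp1 between the parents (0.0501) and Stra8 in PWDxB6 against the mid-parent (0.0547), which autosomal centring ended too (0.0501), and replicates 1 to 3 alone ended Rxra in B6xPWD against B6xBALB/C (-0.22, 0.145). For B6xBALB/C against BALB/CxB6, the stricter dim filter gave 21, quantile normalization 23 and trended variances 27, and for the interaction the stricter filter gave 100 and trended variances 76. The stricter filter gave 139 for PWDxB6 against PWDxPWK, and no filter gave 2 for PWDxPWK against PWD.

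Centring on the autosomal median turned the split of calls to 108 higher and 327 lower for PWDxB6 against B6xPWD (main 196 and 222), 1371 and 617 for B6xPWD against the mid-parent (main 1148 and 987), 63 and 29 for B6xBALB/C against BALB/CxB6 (main 53 and 12), and 1098 and 375 for B6xPWD against B6xBALB/C (main 851 and 520).

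With 1 array left out, the counts ran from 54 to 851 (PWDxB6 against B6xPWD), 30 to 162 and 389 to 2621 (PWDxB6 and B6xPWD against the mid-parent), 1802 to 3054 (PWD against B6), 1 to 1011 (B6xBALB/C against BALB/CxB6), 0 to 2 (PWDxPWK against PWD), 94 to 253 (PWDxB6 against PWDxPWK), 570 to 1724 (B6xPWD against B6xBALB/C) and 19 to 1057 (interaction). The highest counts for PWDxB6 against B6xPWD, for B6xBALB/C against BALB/CxB6 and for the interaction came without B6xBALB/C replicate 6. Cyp26b1 then ran from 0.74 to 1.04 between the hybrids, -0.063 to 0.24 for PWDxB6 against the mid-parent, -0.0058 to 0.21 between the parents and -0.66 to -0.54 for B6xPWD against B6xBALB/C.

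Near 0, signs turned for uncalled genes. Between the hybrids Cyp26a1 was -0.026 with quantile normalization, -0.017 with autosomal centring and -0.18 to 0.17 with 1 array left out, Stra6 was 0.079 with array weights and -0.29 to 0.070 with 1 array left out, and Rarg -0.032 to 0.13. Aldh1a2 in B6xBALB/C against BALB/CxB6 was -0.00093 with autosomal centring, -0.0055 on replicates 1 to 3 with or without the block, and -0.011 to 0.065 with 1 array left out.

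The Cyp26c1 interaction, 0.75 (adjusted p = 0.0660), passed the test without B6xBALB/C replicate 6 (0.76, adjusted p = 0.0251), where 1057 genes were called (main 192). Variants under the probes between PWD and B6 were not examined. Scanner files were not analysed here, which leaves the signal above background unmeasured. The number of arrays, 2 in PWDxPWK, limits the precision.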
